A study of Sus scrofa with 4 samples.

Results

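GSTA1, an alpha-class glutathione S-transferase, was described through every probe set of a porcine array that the array's annotation assigns to it, in liver pools of piglets fed L-carnitine and of control piglets. The gene is 1 of 6765 genes with a single symbol, and it has 3 of the 23999 probe sets that are no Affymetrix control. Each is called here by its place in the sequence clusters from which the array was designed, and its full name stands on the axes of the plots. The subcluster 2 probe set, which the study's paper calls GSTA3, and the shared probe set, whose probes match several transcripts, come from 1 cluster, and the second-cluster probe set comes from another. A further probe set, the unnamed probe set, has no gene name in the annotation but comes from the same cluster and subcluster as the shared probe set, and is described beside them as a row that is not annotated to the gene. GSTA1 was chosen by the signals of this same diet comparison, in which the subcluster 2 probe set had the largest difference of the table, so the values below are a description of the gene and are not a test of it.

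The carnitine pigs were male crossbreds of German Landrace x Large White with Pietrain that received a diet with 500 mg of added L-carnitine per kg, and the control pigs were of the same cross, sex and age and received the basal diet without the addition. Feeding began at 4 weeks of age and lasted 21 days, so all animals were 7 weeks old, and livers were taken 2.5 h after the last meal. There were 8 pigs per diet, and RNA of 4 pigs was combined in each of 2 pools per diet, with 1 single-colour array per pool. Where 2 values are given for a diet, they are those of its pool 1 and its pool 2. Values of single pigs cannot be seen, and an animal that differs from the rest of its pool cannot be told apart from a change shared by all 4. All signals are MAS5 intensities on a linear scale, which summarise the probe pairs of a probe set into 1 number.

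Glutathione S-transferases join glutathione to reactive electrophiles, which makes them more soluble and prepares them for export. The alpha class is among the abundant cytosolic proteins of hepatocytes, where it also binds bilirubin, haem and bile acids and reduces lipid hydroperoxides. Alpha-class genes are closely alike in sequence and lie near each other in the genome, and human GSTA3 is known for isomerising steroid precursors in steroidogenic tissue. In the naming of Affymetrix, a probe set ending in _at was designed to match a single transcript, whereas one ending in _s_at holds probes that several transcripts share. By these endings the shared probe set is of the second kind and the other 3 are of the first.

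The arrays had nearly the same median signal, 109.1 and 112.9 with carnitine and 113.9 and 114.1 in control liver. All 9 hepatocyte markers were bright, with albumin (ALB) at 45232 and 39815 with carnitine and 49289 and 45404 in control liver. The second control pool stood apart in the summed signal of markers of stellate cells and fibroblasts (6 genes, 2630 and 2367 with carnitine, 1736 and 8506 in control liver), cholangiocytes (5 genes, 1769 and 1311 with carnitine, 1240 and 7364 in control liver) and endothelial cells (4 genes, 1647 and 1106 with carnitine, 869.3 and 2680 in control liver). Most of each sum in that pool came from a single gene, ACTA2 (5533), SPP1 (6231) and PECAM1 (1691) in the same order. Of these markers, COL1A2, COL3A1, SOX9, CFTR and KDR were not highest in the second control pool, and the others were. The ratio of 3' to 5' signals, which depends on how intact the RNA was and how it was labelled, was higher with carnitine for GAPDH (18.7 and 16.1 with carnitine, 12.5 and 11.6 in control liver) and for actin (157 and 136 with carnitine, 91.2 and 86.7 in control liver). That of EF1A overlapped between diets (23.4 and 29.6 with carnitine, 57.9 and 18.2 in control liver), and that of dap, a bacterial control transcript, was lower with carnitine (11.0 and 7.83, compared with 19.7 and 17.8 in control liver). The part of these differences in the signals of GSTA1 was not tested.

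The subcluster 2 probe set separated the diets by almost its whole range. Its signal was 5942 in the first and 9760 in the second carnitine pool, and 39.9 in the first and 86.5 in the second control pool. Both carnitine pools lay in the upper part of their arrays and both control pools lay under the median of theirs, with no overlap. Carnitine pools averaged 7851 ± 2699.7 and control pools 63.2 ± 32.9 (SD, n = 2 each). On the log2 scale the difference was 7.02 (SE 0.41, 95% interval 6.06 to 7.97), which is 129.6-fold. Every pairing of a carnitine with a control pool gave a large ratio, the smallest 68.7-fold and the largest 244.5-fold. The pools of the same diet differed far less, by 1.64-fold between the carnitine pools and by 2.17-fold between the control pools. Because the control signals were dim and no detection calls were used, whether the transcript was detected in the control pools at all is not known from these values, and the size of the fold rests on that dim level: with 64 signal units added to every value the log2 difference was 5.94.

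The place of this probe set within each array shows the same separation without a ratio of dim signals. It ranked 617 and 355 from the top in the carnitine arrays, percentiles 97.4 and 98.5, against 16381 and 13131 in the control arrays, percentiles 31.7 and 45.3. Of 23999 probe sets, 1 lay above the 75th percentile in both carnitine pools and under the 50th in both control pools, and that was the subcluster 2 probe set; 0 showed the reverse pattern. These percentiles were chosen after the values were seen. The 5 probe sets that followed it by size of the log2 difference had differences between 4.77 and 5.13 in size, carried no gene symbol here, and had no signal above 23.2 in any pool.

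**Figure D1:**
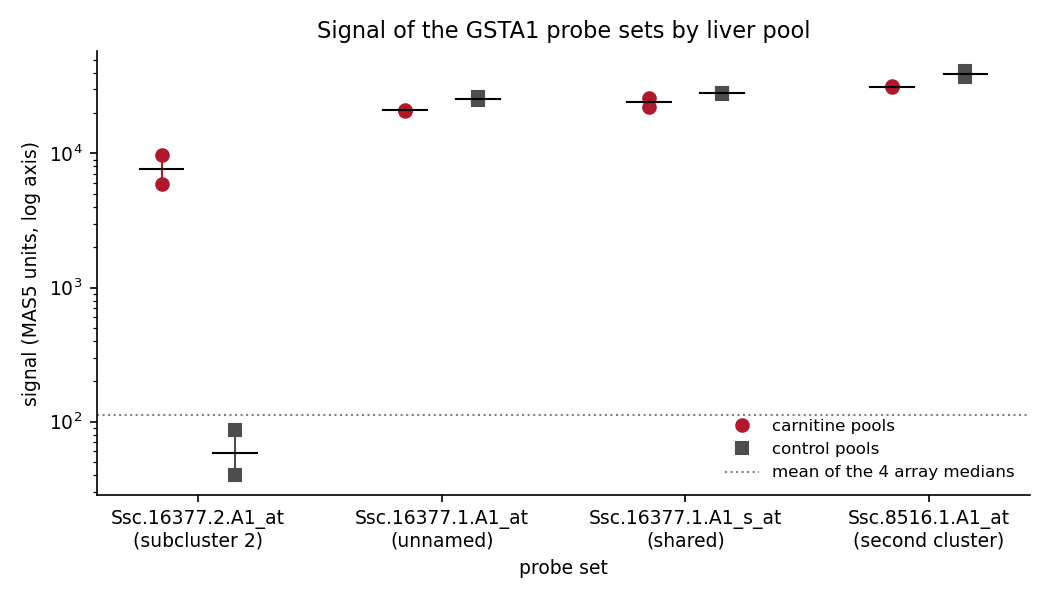
Signal (MAS5 units, log axis) of the 4 probe sets described, with the carnitine pools as red circles to the left and the control pools as grey squares to the right. Points are single pools, black bars the geometric means and the dotted line the mean of the 4 array medians. Only the subcluster 2 probe set has control pools (39.9 and 86.5) under the dotted line, whereas the other 3 lie above 20000 in every pool.

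The remaining probe sets of the gene were bright in all 4 pools and lay somewhat lower with carnitine. The second-cluster probe set had signals of 31268 and 31596 with carnitine, compared with 41220 and 36979 in control liver, and was among the brightest of the array (rank 48 and 33 with carnitine, 25 and 25 in the control arrays). Both carnitine pools lay under both control pools, with a log2 difference of -0.31 (SE 0.20, 95% interval -0.79 to 0.16). The carnitine pools differed by 1.01-fold from each other and the control pools by 1.11-fold.

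The shared probe set had signals of 22382 and 26034 with carnitine, compared with 28426 and 27766 in control liver. The annotation pairs it with 2 reference transcripts, the one that the other GSTA1 probe sets carry and a second that the gene table used here does not hold. The diets did not overlap, but the second carnitine pool came to 93.8% of the lower control pool. The log2 difference was -0.22 (SE 0.20, 95% interval -0.69 to 0.25).

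The unnamed probe set had signals of 20639 and 21243 with carnitine, compared with 26255 and 24907 in control liver. It was lower in both carnitine pools, by -0.29 on the log2 scale (SE 0.19, 95% interval -0.74 to 0.16). It and the subcluster 2 probe set share a cluster and differ in the subcluster, and their log2 differences lay 7.31 apart. The differences of the 3 bright probe sets lay at most 0.094 apart.

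Among the 3 probe sets annotated to GSTA1, 1 passed an adjusted p under 0.05 in limma's fit, the subcluster 2 probe set, where 0.00417% of all probe sets were called higher. That call was lost without a variance trend (limma adjusted p = 0.374), in a one-factor analysis of variance (adjusted p = 0.631) and without either carnitine pool (limma adjusted p = 0.240 and 0.954). At an unadjusted p under 0.05 the count was again 1 of 3, where 8.65% of all probe sets were called in either direction. The pools did not overlap in any of the 3, with 1 higher in both carnitine pools, where 19.2% of all probe sets were, and 2 lower in both, where 20.4% were. The gene was chosen by this contrast, so nothing is read from these counts.

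The small differences of the bright probe sets stood beside a shift of bright signals in general. Of 136 probe sets with a mean signal above 20000, a limit set after the values were seen, 84.6% had a log2 difference below 0, with a median of -0.13, against 51.4% and a median of -0.02 over all 23999 probe sets. In this bright set 46.3% lay lower in both carnitine pools, and 9 probe sets, the second-cluster probe set included, had a difference as low as its -0.31 or lower. The hepatocyte markers had a median difference of -0.12, and the cre control transcripts, added to every sample, had differences of -0.06 and -0.16. After quantile normalization, which gives every array the same distribution of signals, the 3 bright probe sets had differences between -0.17 and -0.07, all still below 0. The part of the general shift of bright signals in the differences of these 3 was not tested.

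**Figure D2:**
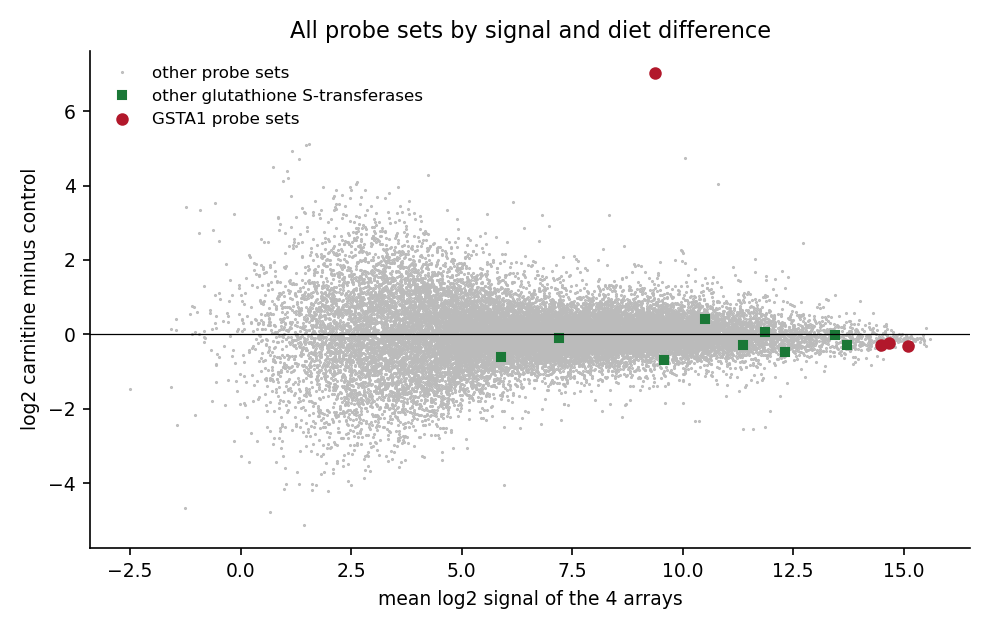
Log2 difference (carnitine minus control) against the mean log2 signal of the 4 arrays, with 1 point per probe set, red circles for the 4 probe sets described, green squares for the other glutathione S-transferases and grey points for the rest. One red circle lies alone at 7.02, and 3 lie between -0.31 and -0.22 at the bright end, where most grey points are below 0.

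The disagreement between probe sets of this gene was set beside that of other genes. Over 2261 genes with more than 1 probe set, the range from the lowest to the highest log2 difference had a median of 0.64 and a 95th percentile of 2.49, and GSTA1 had the widest range, 7.33. The range was over 2 in 214 of these genes. With only probe sets above the median signal, 825 genes remained, with a median range of 0.31 and a 95th percentile of 0.97. Of these, 4 ranged over more than 2: GSTA1 (7.33), PTGES3 (3.17), HNRNPA2B1 (2.14) and C8H4orf48 (2.08). This filter used the mean log2 signal of the 4 arrays. The subcluster 2 probe set passed it through its carnitine pools, since its control pools (39.9 and 86.5) lay under the array medians. The same holds for the PTGES3 probe set that differed most (28.6 and 48.4 in control liver). GSTA1 was chosen for the largest difference of the table, so its first place follows largely from that choice and is not a test. For PTGES3, which encodes the cochaperone p23, 1 probe set was higher by 3.20 and the other by 0.03. One summary signal per probe set was used, so which transcript, isoform or allele each GSTA1 probe set reads, or whether one reads another alpha-class gene, was not tested.

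**Figure D3:**
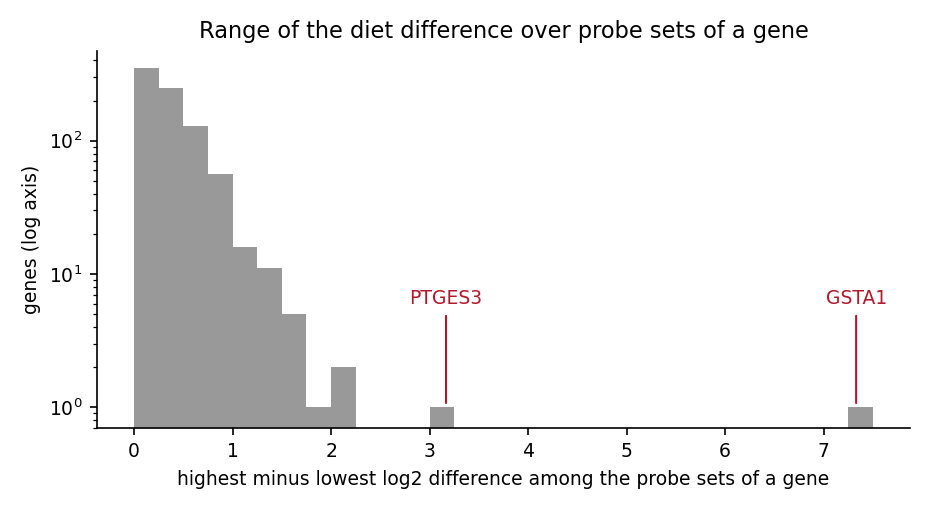
Number of genes (log axis) by the range of the log2 differences among their probe sets, for the 825 genes with more than 1 probe set above the median signal. Most genes range over less than 1, PTGES3 stands at 3.17 and GSTA1 at 7.33. GSTA1 was chosen by the largest of these differences, and its place here is not a test.

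GSTA4, the other alpha-class gene with a named probe set, conjugates 4-hydroxynonenal and related products of lipid peroxidation. Its bright probe set had signals of 1621 and 1747 with carnitine, compared with 970.5 and 1657 in control liver. The diets overlapped, and the log2 difference was 0.41 (SE 0.28, 95% interval -0.24 to 1.06). Its dim probe set had signals of 45.7 and 50.3 with carnitine, compared with 100.6 and 53.3 in control liver, a difference of -0.61 (SE 0.52) in the opposite direction. Neither probe set of GSTA4 showed a separation of the kind seen in the subcluster 2 probe set.

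In the RefSeq gene table of assembly Sscrofa11.1, GSTA1 lies on chromosome 7 and GSTA4 is the third gene after it. Between them lie LOC100526118 and LOC100510917, to which the annotation assigns 0 probe sets. The neighbours were looked up by position, after the values were seen. TMEM14A, next to GSTA1 on the other side, had signals of 166.7 and 197.9 with carnitine, against 208.4 and 162.0 in the control pools, and TRAM2 beyond it had 1054 and 1332 with carnitine, against 795.4 and 1054 in control liver. Both overlapped between diets, with log2 differences of -0.02 (SE 0.32) and 0.37 (SE 0.24). Beyond GSTA4, ICK overlapped (0.13, SE 0.47), and both probe sets of FBXO9 lay lower in both carnitine pools: the brighter had 608.0 and 605.8 with carnitine, compared with 674.8 and 626.6 in control liver (-0.10, SE 0.21), and the dimmer had 6.50 and 6.92 with carnitine, compared with 21.0 and 28.9 in control liver (-1.88, SE 0.77, limma adjusted p = 0.561).

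Of 26 listed glutathione S-transferases, 8 genes were measured by 12 probe sets, of which the subcluster 2 probe set alone passed limma's adjusted p under 0.05. It was also the only one called among all 23999 probe sets (0.00417%), and GSTA1 was chosen by it. The call was lost without a variance trend and in a one-factor analysis of variance, so nothing is read from it here. For the list, each gene was taken by its brightest probe set, which for GSTA1 is the second-cluster one. Of these 8, 0 passed an adjusted p under 0.05 in limma, which called 1 of all 23999 probe sets. In a one-factor analysis of variance 0 passed, where 0 of all probe sets did. At an unadjusted p under 0.05 limma called 0 higher and 1 lower, where it called 8.65% of all probe sets. The analysis of variance called 1, where it called 7.01% of all. The median log2 difference was -0.19, with 2 genes above and 6 below 0, against a median of -0.01 and 50.9% below 0 over the brightest probe sets of all 6765 genes.

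The gene with the unadjusted call was GSTZ1, the zeta-class enzyme that isomerises maleylacetoacetate in tyrosine breakdown. It had signals of 4571 and 4119 with carnitine, compared with 5726 and 6263 in control liver, with no overlap, a difference of -0.46 (SE 0.18, limma adjusted p = 0.541). The microsomal enzyme MGST1 had 12000.2 and 12372 with carnitine, compared with 15769 and 13944 in control liver, and MGST3 had 2514 and 2262 with carnitine, compared with 2961 and 2827 in control liver. Both lay lower in both carnitine pools, with a difference of -0.28 each (SE 0.19 for MGST1). Of the 8 genes, 0 lay higher and 4 lower in both carnitine pools, where 19.2% and 20.4% of all probe sets did. GSTK1, a mitochondrial and peroxisomal enzyme, had 3478 and 4158 with carnitine, compared with 3485 and 3808 in control liver, a difference of 0.06. GSTO1, which reduces dehydroascorbate, differed by -0.01, and GSTM3, a mu-class enzyme, by -0.10, both with overlapping diets.

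**Figure D4:**
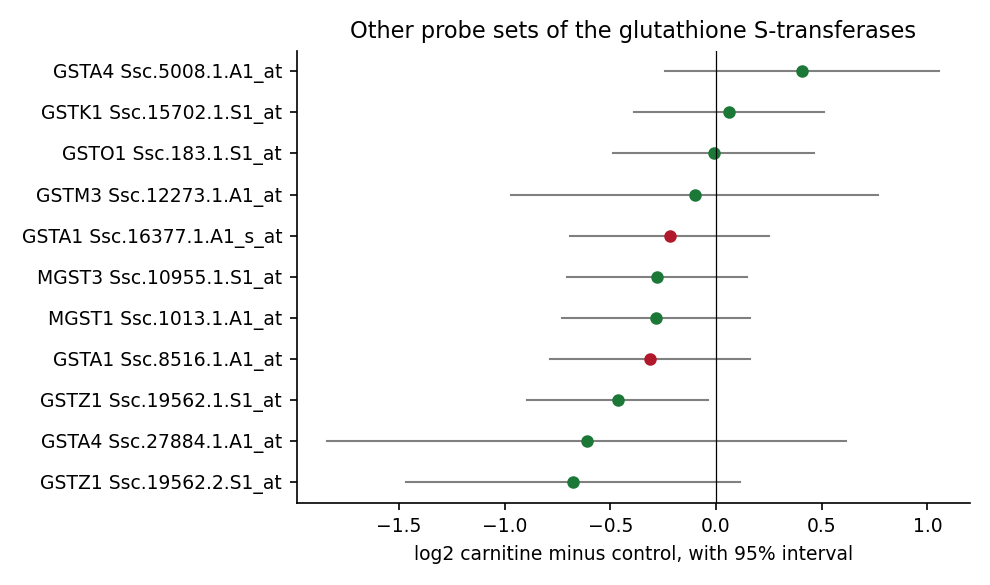
Log2 difference (carnitine minus control, points) with its 95% interval (lines) for the named probe sets of the glutathione S-transferases other than the subcluster 2 probe set, with GSTA1 in red and the other genes in green. The intervals include 0 for all but the brighter probe set of GSTZ1 (-0.46), and the 2 GSTA1 probe sets lie at -0.22 and -0.31.

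The enzymes that supply glutathione to GSTA1 and process its conjugates lay on both sides of 0. Of 32 listed genes of glutathione synthesis, recycling and the mercapturate path, 21 were measured and 0 passed the adjusted p by limma or by the analysis of variance. Over all 23999 probe sets limma called only 1 and the analysis of variance 0, so nothing is read from these zeros. The median difference was 0.01, with 11 genes above and 10 below 0, and limma's unadjusted p was under 0.05 for 1 higher and 2 lower genes (8.65% of all probe sets) and that of the analysis of variance for 1 (7.01% of all). GCLC, the catalytic subunit of the rate-limiting step of glutathione synthesis, had 3916 and 2718 with carnitine, compared with 7446 and 4476 in control liver. GLRX, which uses glutathione to reduce protein disulphides, had 1903 and 3075 with carnitine, compared with 973.1 and 1760 in control liver. The diets did not overlap in either, with GCLC lower with carnitine (-0.82, limma adjusted p = 0.503) and GLRX higher (0.89, limma adjusted p = 0.534). Of the 21 genes, 4 lay higher and 5 lower in both carnitine pools, where 19.2% and 20.4% of all probe sets did.

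Genes that share known regulators with alpha-class transferases were read the same way. Of 34 listed genes of NRF2, the transcription factor of the electrophile response, and its targets, 19 were measured, with a median difference of -0.18, 6 above and 13 below 0, where 50.9% of all genes were below 0. At the adjusted p 0 passed by limma (1 of all 23999 probe sets) and 0 by the analysis of variance (0 of all). At an unadjusted p under 0.05 limma called 0 higher and 1 lower (8.65% of all probe sets). The analysis of variance called 1 (7.01% of all). The lower gene called by limma was GCLC, the same probe set that is counted and described in the glutathione synthesis list. TXNRD1, thioredoxin reductase, had 2297 and 1998 with carnitine, compared with 1996 and 1520 in control liver, a difference of 0.30. Transketolase (TKT) and transaldolase (TALDO1), of the pentose phosphate pathway, lay lower in both carnitine pools, with differences of -0.40 and -0.39. Of the 19 genes, 2 lay higher and 6 lower in both carnitine pools, where 19.2% and 20.4% of all probe sets did.

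Of 31 listed xenobiotic receptors and targets, 22 were measured, with a median difference of -0.11, 8 above and 14 below 0. At the adjusted p 0 passed by limma, where 1 of all 23999 probe sets did, and 0 by the analysis of variance, where 0 did. At an unadjusted p under 0.05 limma called 2 higher and 3 lower, where it called 8.65% of all probe sets. The analysis of variance called 1, where it called 7.01% of all. ALAS1, the first enzyme of haem synthesis, had 15992 and 16002 with carnitine, compared with 4352 and 1915 in control liver, a difference of 2.47 (limma adjusted p = 0.208); its diets did not overlap. SULT2A1, which sulphates steroids and bile acids, had 10657 and 17395 with carnitine, against 5525 and 8833 in the control pools. The 3 lower genes were POR (-0.57), CYP3A22 (-0.71) and ABCB1 (-0.53), with limma adjusted p of 0.480, 0.535 and 0.544. Each lay lower in both carnitine pools by its brightest probe set, but the log2 differences of the 3 probe sets of ABCB1 ran from -3.64 to 1.96. Of the 22 genes, 4 lay higher and 8 lower in both carnitine pools, where 19.2% and 20.4% of all probe sets did. The glutathione peroxidases (8 of 9 listed measured, median 0.12, and -0.15 without the first control pool) and enzymes that remove lipid aldehydes (11 of 13, median -0.06) had 0 genes past an unadjusted p under 0.05 in limma and in the analysis of variance.

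Likeness of other probe sets with 1 symbol and a signal above the median to each GSTA1 probe set was measured as the root mean square distance between log2 signals over the 4 arrays, each centred on its own mean, which weighs size as well as shape, among 6048 probe sets. Since the subcluster 2 probe set has the largest difference of the table, its distances to others are large by construction. Their order depends largely on the size of each probe set's own increase with carnitine, so nothing is read from it. The nearest was that of APOA4, an apolipoprotein of lipid transport, at a distance of 1.71, followed by PTGES3 (1.94), CYP2J34 (2.32), PPRC1 (2.38) and HSPH1 (2.40). APOA4 had signals of 2888 and 18272 with carnitine, compared with 184.0 and 1042 in control liver, so its diets did not overlap but its pools of the same diet differed by 6.33-fold and 5.66-fold. PPRC1, a coactivator of the PGC-1 family, had 989.9 and 878.6 with carnitine, against 183.5 and 175.4 in the control pools.

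Within a distance of 0.1 there were 408 probe sets for the unnamed probe set, 308 for the shared probe set and 385 for the second-cluster probe set. The nearest were those of APEH (0.0105), EIF3E (0.00463) and PIAS1 (0.011), in the same order, and MGST1 was the fourth for the second-cluster probe set (0.0194).

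The measured markers of enterocytes and adrenal cortex, which express alpha-class transferases outside the liver, gave no separation of the diets like that of the subcluster 2 probe set. Of 5 listed kidney markers 0 were measured, so kidney could not be assessed. The 7 measured exocrine pancreas markers of 11 listed summed to 2750 and 4748 with carnitine, compared with 4834 and 2042 in control liver. Most of it came from AMY2 (2586 and 4487 with carnitine, 4616 and 1830 in control liver), the only one of them above the median signal. FABP2, of enterocytes, had 23.3 and 18.8 with carnitine, compared with 22.3 and 23.2 in control liver, under the median in all 4 arrays. The 5 measured enterocyte markers of 10 listed summed to 1274 and 1287 with carnitine, compared with 1289 and 815.0 in control liver, most of it from VIL1. The adrenal cortex markers STAR, CYP17A1 and CYP11A1 had signals of at most 31.3 in any pool, and all 4 measured of 8 listed, with HSD3B1, summed to 1724 and 1267 with carnitine, compared with 2129 and 2922 in control liver. In bulk liver RNA, a different number of cells of a type and a different RNA level per cell cannot be told apart.

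The difference of each GSTA1 probe set was computed again under 12 other settings of the fit and with arithmetic means in place of log means. That of the subcluster 2 probe set stayed between 5.94 and 7.58, and those of the bright probe sets stayed below 0 in every setting. Without the first carnitine pool it was 7.38 and without the second 6.66, and in both cases it no longer passed the adjusted p (limma, 0.240 and 0.954). Without the first control pool it was 6.46 and without the second 7.58, and it passed in both.

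**Figure D5:**
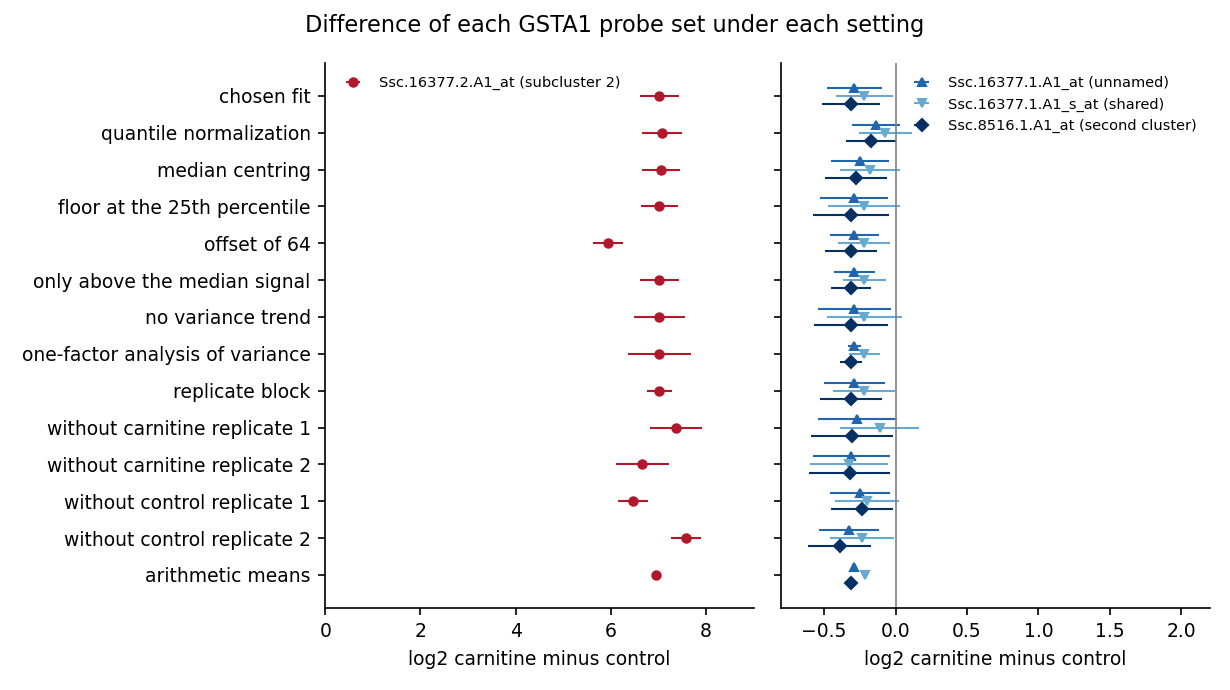
Log2 difference (carnitine minus control, points) with its standard error (lines, none for arithmetic means) of the subcluster 2 probe set on the left and of the 3 bright probe sets on the right, under each setting of the fit. The left panel runs from 5.94 with an offset of 64 to 7.58 without control replicate 2, and every point of the right panel lies below 0.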

How the data were processed

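The authors deposited 1 table of MAS5 signal intensity values on a linear scale for 4 arrays, scaled by the authors to a common trimmed mean, with MAS5 5.0, Affymetrix Expression Console 1.1 and GCOS 1.1.2 credited in the submitters' processing notes. Neither detection calls nor values of single probes entered the work. Of 24123 rows, 124 Affymetrix controls were left out and 23999 kept without a filter. The log2 of each signal was taken, without a pseudocount, and fitted with limma 3.58.1 in R 4.3.3 (lmFit, eBayes with a variance trend, 1 factor, 2 residual degrees of freedom), with Benjamini-Hochberg adjustment over all 23999 rows at 0.05. The fit was also run on simulated normal data, where 12 of 23799 unchanged rows passed. The simulated spread depended on signal alone, as the variance trend assumes, so that run cannot show how the fit behaves where spreads differ otherwise. An exact permutation test of 2 against 2 pools cannot go below a two-sided p of 0.333. Intervals are 95% intervals of that fit. Precision is limited by the number of arrays, which carry no read depth. The labels number the pools as biological replicates, and p-values measure only the spread between pools. In limma's fit that spread is drawn towards that of all probe sets of like signal. The SE of the subcluster 2 probe set was 0.41 in it and 0.66 in the one-factor analysis of variance, which uses its own pools alone.

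Symbols came from the array's annotation, updated through a gene table: 10069 rows have 1 symbol, 198 several and 13732 none. Since the annotation names no build, no coordinates are given. The gene, the lists and the marker genes were chosen with earlier results of these data known. Named genes are all GSTA1 rows and rows of their cluster number, all glutathione S-transferases, up to 3 higher and 3 lower genes of each other list by smallest p, of which some are described, and the 5 nearest profiles of each GSTA1 row. Outside this rule, the chromosomal neighbours and the genes with the widest range over probe sets were picked once their values had been seen. Alternatives were quantile normalization, median centring, a floor at the 25th percentile, an offset of 64, only rows above the median signal, no variance trend, analysis of variance with 1 factor (the statistics section of the study names it, without saying that it was used on array signals), the replicate number as a block, each pool left out, arithmetic means and the mean over probe sets of a gene.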

Additional observations from a re-analysis of the deposited data

How the results depend on the processing

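The log2 difference of the subcluster 2 probe set kept its direction in every setting. It passed limma's adjusted p with the chosen fit (7.02) and lost the call without a variance trend (7.02, adjusted p = 0.374), in the one-factor analysis of variance (7.02, adjusted p = 0.631) and without either carnitine pool. Over the 4 fits without 1 pool, which assume that a lone pool varies like the others, it ran from 6.46 to 7.58. The bright probe sets stayed below 0 and uncalled throughout.

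Over all probe sets, 1 was called higher and 0 lower at an adjusted p under 0.05. The counts were 2 and 1 with only those above the median signal, 1 and 1 with a floor, and 0 and 0 without a variance trend and in the analysis of variance. Without 1 pool they ran from 0 to 6 higher and from 0 to 2 lower, and at an unadjusted p under 0.05 from 358 to 1817 higher and from 626 to 1289 lower. With the replicate number as a replicate block they were 68 and 38, including the subcluster 2 probe set (7.02), but the pools share only a number: deviations of same-numbered pools had a correlation of 0.0032.

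Without 1 pool the median difference ran from -0.33 to -0.065 for glutathione S-transferases, from -0.080 to 0.18 for glutathione synthesis and recycling, from -0.28 to -0.029 for NRF2 targets, from -0.23 to -0.033 for xenobiotic targets, from -0.15 to 0.39 for glutathione peroxidases (0.12 with all pools) and from -0.18 to -0.063 for lipid aldehyde removal. Quantile normalization gave -0.062 for NRF2 targets, -0.015 for xenobiotic targets and 0.062 for lipid aldehyde removal. The mean over probe sets of a gene gave -0.15 for glutathione synthesis and recycling, -0.28 for NRF2 targets, -0.059 for glutathione peroxidases and 0.042 for lipid aldehyde removal. The causes of these changes were not tested.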
